A study of Mus musculus with 8 samples.

Results

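Cadherins and desmosome components were followed through the sorted epithelium of the mouse mammary gland. The 10 genes were chosen by name from the 49671 genes of the deposited table: the classical cadherins Cdh1 and Cdh3, the desmosomal cadherins Dsg2, Dsg3, Dsc2 and Dsc3, the plaque genes Jup, Pkp1 and Dsp, and Perp. Cadherins are membrane proteins that bind their like on the neighbouring cell. Classical cadherins build adherens junctions and hold actin through catenins, while desmogleins and desmocollins build desmosomes and hold keratin filaments through plakoglobin, plakophilins and desmoplakin. In the mammary duct, E-cadherin is the main cadherin of the inner luminal cells and P-cadherin marks the outer basal (myoepithelial) layer, and in skin the desmosomal genes are known targets of the transcription factor p63.

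RNA-seq was done on 8 libraries of female mice, 2 in each of 4 groups. Cells were sorted as negative for CD45, CD31 and CD140a and positive for CD24, with low CD29 (the luminal gate, 40000 cells) or high CD29 (the basal gate, 5000 cells). CD1 mice, labelled with no transgene, gave 1 group for each gate. K8rtTA/TetOCre/Rosa26-DNp63-IRES-GFP mice, written DNp63 below, gave the remaining groups, for which GFP-positive cells were taken. In such mice the keratin 8 promoter drives rtTA, doxycycline then switches on Cre, and Cre opens a Rosa26 cassette that makes ΔNp63, the p63 form of basal cells, together with GFP. The mice are described as of mixed genetic background, and the sources used here give neither their age nor when DNp63 mice received doxycycline. Strain, GFP sorting and any doxycycline given went along with the transgenes, and their parts cannot be told apart. Whether both libraries of a group are separate animals is not stated, so p-values reflect the spread between libraries alone. That spread may be purely technical in the CD1 groups (for the DNp63 groups, see Xist below).

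Values are reads per 20000000, and a level is a library value or a group mean ± SD (n = 2). A difference is a log2 difference of scaled values after 8 was added, with its standard error (SE) or 95% interval, and it understates the change of genes at low values. A gene was called at a Benjamini-Hochberg adjusted p under 0.05 in limma's moderated test over 16900 genes. All 10 genes entered the test, Dsg3 through the DNp63 basal libraries alone, where it reached the filter value of 40. Dsc3 reached that value in the basal libraries of both mice and in no luminal library.

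Depth was 4136973 to 7206688 reads assigned to genes per library. Trp63, which encodes p63 and collects any transgene reads, stood at 61 and 45 for CD1 and 1297 and 1460 for DNp63 in the luminal gate, and 5457 and 7079 for CD1 and 8088 and 8306 for DNp63 in the basal gate. The second library of both DNp63 groups stood apart in Xist, the RNA that coats the inactive X: 36 and 141, against 55545 to 111346 in the other 6 libraries. The first DNp63 libraries had 111346 (luminal) and 60686 (basal), so the libraries of a DNp63 group were not repeats of the same cells. Summed values of the Y-linked genes Ddx3y, Uty, Kdm5d and Eif2s3y were 0 to 4 in every library. The reason for the low Xist was not tested. Summed values of 6 luminal markers were 147431 to 157281 in the luminal gate, and 26404 and 21174 (CD1) or 10957 and 12172 (DNp63) in the basal gate. Those of 6 basal markers were 165383 to 185140 in the basal gate and 1540 to 3560 in the luminal gate. Markers of some other cells went with the basal gate: CD1 basal exceeded CD1 luminal in 9 of 9 endothelial genes (all called, sums 51044 and 51188 against 1359 and 1564). Called the same way were 6 of 7 pericyte and 6 of 6 adipocyte genes, beside 24.2% of all tested genes. Some of these markers, such as Adipoq and Kcnj8, reached the filter value in basal libraries alone. In the same comparison 0 of 7 fibroblast genes and 1 of 6 tested immune genes were called. Pecam1, which encodes the gated CD31, stood at 8163 and 7669 in CD1 basal against 419 and 571 in CD1 luminal. Their part in the gate differences below was not tested. In bulk RNA, fewer cells of a type and less RNA per cell cannot be told apart.

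**Figure D1:**
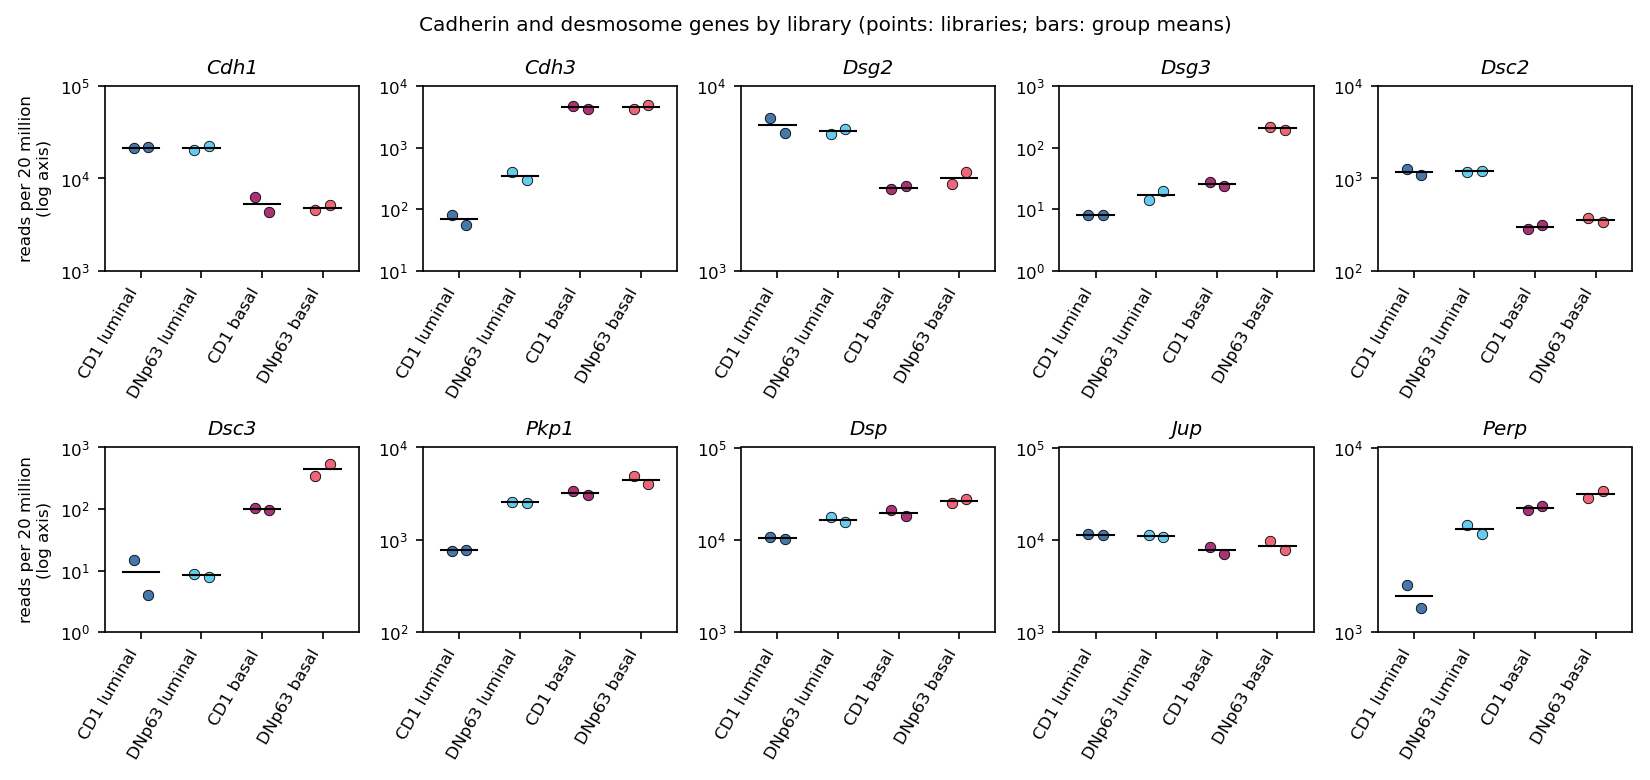
Each panel plots 1 of the 10 genes by group (vertical log axis in reads per 20000000, with its own range; points are libraries and bars group means). Cdh1, Dsg2, Dsc2 and Jup were lower in every basal than in every luminal library, and the other 6 genes were higher in every basal library, a separation also seen in 51.2% of all tested genes.

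The 10 genes separated the gates into opposite sets. In CD1 basal against CD1 luminal cells, 6 of 10 were called higher and 4 lower, beside 24.2% and 20.1% of all tested genes (44.3% in either direction). The 6 were Cdh3, Dsc3, Dsg3, Pkp1, Dsp and Perp, and the 4 were Cdh1, Dsg2, Dsc2 and Jup. The library values of the 10 did not overlap between these groups, and nor did those of 71.3% of all tested genes. Without Dsg3 the counts were 5 higher and 4 lower of 9. Dsc3, admitted by the filter through the basal gate alone, remained among the 5. The median difference over the 10 was 0.99, against -0.01 over all tested genes.

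Cdh1 and Cdh3 encode E-cadherin and P-cadherin, the adhesion receptors of the adherens junction. They are neighbours on chromosome 8 of GRCm38, both on the plus strand (Cdh3, ENSMUSG00000061048, 106510891 to 106557297; Cdh1, ENSMUSG00000000303, 106603351 to 106670246; GENCODE M21), 46.1 kb apart. Cdh1 stood at 21541 and 21657 for CD1 and 20265 and 22623 for DNp63 in the luminal gate, and 6323 and 4320 for CD1 and 4540 and 5159 for DNp63 in the basal gate. Its libraries were ordered by gate: the luminal groups overlapped, the basal groups overlapped, and every basal library was below every luminal one. Its level in CD1 basal was 4.06-fold lower than in CD1 luminal (difference -2.06, SE 0.16, adjusted p = 2.83e-05). The DNp63 minus CD1 difference was -0.07 in the luminal gate (95% interval -0.45 to 0.30, adjusted p = 0.884) and -0.13 in the basal gate (-0.50 to 0.25, adjusted p = 0.857).

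Cdh3 had 82 and 56 for CD1 and 408 and 294 for DNp63 in the luminal gate, and 4707 and 4252 for CD1 and 4219 and 4907 for DNp63 in the basal gate. The DNp63 luminal libraries lay between the CD1 gates without overlap with either, and the basal groups overlapped each other. Cdh3 rose 64.9-fold in level from CD1 luminal to CD1 basal (difference 5.87, SE 0.22, adjusted p = 6.73e-07). It rose 5.09-fold from CD1 luminal (69.0 ± 18.4, SD, n = 2) to DNp63 luminal (351 ± 80.6), a difference of 2.17 (SE 0.22, adjusted p = 0.00159), to a mean that was 7.84% of the CD1 basal mean. Between the basal groups its difference was 0.01 (95% interval -0.48 to 0.50, adjusted p = 0.995). The mouse effect on Cdh3 thus differed between gates (interaction -2.16, SE 0.31, adjusted p = 0.0337). The interaction test called 2 of the 10 genes, Cdh3 and Pkp1, both negative, beside 0.26% of tested genes that were negative and 0.0828% positive (0.343% in all). The call of Cdh3 was lost without any 1 of both DNp63 luminal, both CD1 basal or both DNp63 basal libraries (adjusted p 0.084 to 0.176), and without both DNp63 libraries of low Xist (-2.51, adjusted p = 0.441).

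Dsg2 and Dsc2 encode the desmoglein and desmocollin found in simple epithelia, and Dsg3 and Dsc3 their counterparts of the deep layers of stratified epithelia. All 4 lie within 643.6 kb of chromosome 18: Dsc3 (ENSMUSG00000059898, 19960930 to 20002351) and Dsc2 (ENSMUSG00000024331, 20030633 to 20059554) on the minus strand, then Dsg3 (ENSMUSG00000056632, 20510274 to 20547459) and Dsg2 (ENSMUSG00000044393, 20558074 to 20604521) on the plus strand. Exons of Dsg2 share 330 bases with the antisense gene Gm16090, which reached at most 86 in any library. Whether counting used strand is not stated in these sources.

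Dsg2 stood at 6716 and 5590 for CD1 and 5506 and 5850 for DNp63 in the luminal gate, and 2775 and 2863 for CD1 and 2968 and 3428 for DNp63 in the basal gate. Dsc2 stood at 1259 and 1078, 1166 and 1217, 284 and 316, and 376 and 334 in the same order. Both followed the gate: the luminal groups overlapped, and the basal libraries lay well below them, DNp63 basal above CD1 basal without overlap. From CD1 luminal to CD1 basal, Dsg2 fell by 1.13 (SE 0.13, adjusted p = 0.000208) and Dsc2 fell by 1.95 (SE 0.16, adjusted p = 3.4e-05). Neither was called between mice. The DNp63 minus CD1 differences of Dsg2 were -0.17 (95% interval -0.47 to 0.13) in the luminal and 0.16 (-0.14 to 0.46) in the basal gate, and those of Dsc2 -0.03 (-0.40 to 0.34) and 0.22 (-0.15 to 0.59).

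Dsg3, the desmoglein of deep epidermal layers, had 8 and 8 for CD1 and 14 and 20 for DNp63 in the luminal gate, and 28 and 24 for CD1 and 220 and 194 for DNp63 in the basal gate. Only the DNp63 basal libraries were well above 0: they held 92 reads of Dsg3, against 12 in CD1 basal, 10 in DNp63 luminal and 4 in CD1 luminal. The ratio of read shares between DNp63 basal and CD1 basal was 8.09, with an exact 95% interval of 4.42 to 16.2 that covers counting error only. In the limma test Dsg3 was higher in DNp63 basal than in CD1 basal (difference 2.65, SE 0.34, adjusted p = 0.0144). It was the only one of the 10 called in that comparison, in which 0.195% of tested genes were called higher and 0.521% lower (0.716% in either direction). The filter admitted Dsg3 through this group alone, so the gene had to differ. Its call was lost with no filter on low values (adjusted p = 0.0549) and without the first (0.111) or second (0.0911) CD1 basal library, and without either DNp63 basal library Dsg3 was not tested. Its difference of 1.08 between CD1 basal and CD1 luminal (adjusted p = 0.0305), on 12 against 4 reads, was lost without any 1 of those 4 libraries (adjusted p 0.0774 to 0.107).

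Dsc3, the desmocollin that pairs with it, had 15 and 4 for CD1 and 9 and 8 for DNp63 in the luminal gate, and 106 and 96 for CD1 and 350 and 547 for DNp63 in the basal gate. The luminal groups overlapped near 0, and the DNp63 basal libraries lay above CD1 basal without overlap. It rose by 2.71 from CD1 luminal to CD1 basal (SE 0.41, adjusted p = 0.000872). The filter admitted Dsc3 through the basal gate alone, so some gate difference was fixed in advance. Between DNp63 basal and CD1 basal the difference was 2.02 (95% interval 1.09 to 2.95), and the adjusted p of 0.0809 missed the threshold. It passed when only these groups were fitted (2.05, adjusted p = 0.0292), at a pseudocount of 32 (1.81, 0.0249) and without the first (0.0372) or second (0.0348) CD1 luminal library, which enters through the shared spread. Only these 4 of 17 alternative settings called Dsc3 here, and it was missed with any basal library left out. Its ratio of read shares was 4.40 (196 against 47 reads, exact 95% interval 3.19 to 6.19, counting error only). Without both DNp63 libraries of low Xist the Dsc3 difference was 1.70 (adjusted p = 0.724), and Dsg3 was not tested. Between the luminal groups neither was called (Dsg3 0.60, 95% interval -0.18 to 1.37, and Dsc3 -0.04, -0.97 to 0.89). The interaction was 2.05 for Dsg3 (adjusted p = 0.142) and 2.06 for Dsc3 (adjusted p = 0.206), so neither was shown to depend on the gate. Fibroblast sums were also higher in DNp63 basal (67981 and 90411) than in CD1 basal (16346 and 45649) (median difference over 7 genes 1.58, none called, all tested genes -0.04). Their part in the values of Dsg3 and Dsc3 was not tested.

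Shares per kb of exon put the paired genes on one scale. Cdh3 made up 0.396% and 0.269% of the summed Cdh1 and Cdh3 level in CD1 luminal and 2.06% and 1.34% in DNp63 luminal. In the basal gate it made up 43.7% and 50.7% (CD1) and 49.2% and 49.8% (DNp63), close to an equal share with Cdh1. Dsc3 took 26.7% and 22.9% of the desmocollin pair in the basal libraries of CD1 and 47.6% and 61.5% in those of DNp63, against at most 1.15% in any luminal library. Dsg3 took 1.18% and 0.983% of the desmoglein pair for CD1 and 8.07% and 6.28% for DNp63 in the same gate, so Dsg2 was the larger in every library. These shares do not depend on the scaling between libraries, and they are given as a description, with no test.

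**Figure D2:**
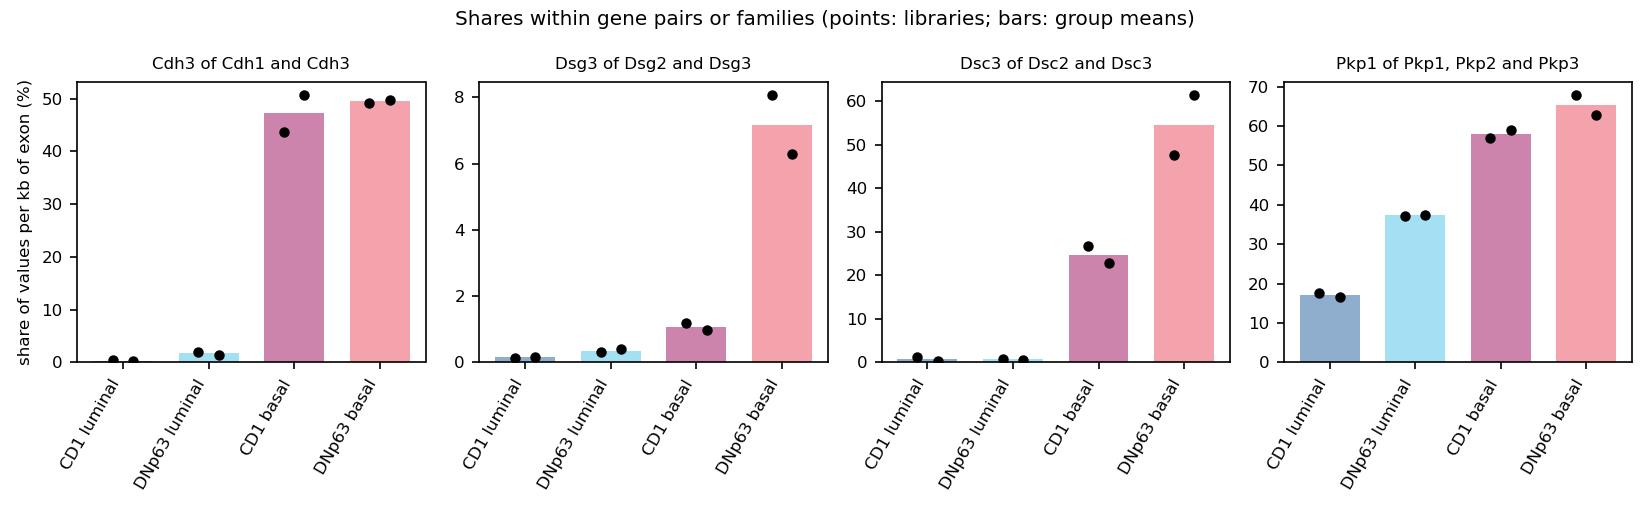
Share of the first gene in the summed level per kb of exon of its pair or family (percent; points are libraries, bars group means, each panel with its own range from 0). Mean shares of Cdh3 were 0.332% in CD1 luminal and 47.2% in CD1 basal, those of Dsc3 24.8% (CD1 basal) and 54.6% (DNp63 basal), and Pkp1 stood at 17.1%, 37.3%, 58.0% and 65.3% from CD1 luminal to DNp63 basal.

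Jup, Pkp1 and Dsp encode the desmosomal plaque: plakoglobin and plakophilin 1 bind the cadherin tails, and desmoplakin ties them to keratin filaments. Dsp (ENSMUSG00000054889, chromosome 13, 38151294 to 38198577, plus strand) stood at 10790 and 10143 for CD1 and 17504 and 15502 for DNp63 in the luminal gate, and 21055 and 18165 for CD1 and 25120 and 27905 for DNp63 in the basal gate. The groups did not overlap, and DNp63 luminal lay between the CD1 gates. The difference was 0.89 between the CD1 gates (SE 0.13, adjusted p = 0.00059) and 0.59 between the luminal groups (SE 0.13, adjusted p = 0.0331). The luminal call was fragile: it was lost without any 1 library other than the first CD1 luminal one (adjusted p 0.0578 to 0.213) and in 3 other settings, at differences of 0.50 to 0.69. In the basal gate the difference was 0.42 (95% interval 0.14 to 0.71, adjusted p = 0.235). Dsp shares 499 bases of exon with the antisense gene Gm10129, which reached at most 25.

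Jup (ENSMUSG00000001552, chromosome 11, 100368958 to 100397763, minus strand), whose product serves both adherens junctions and desmosomes, moved the other way. It stood at 11570 and 11269 for CD1 and 11187 and 10862 for DNp63 in the luminal gate, and 8378 and 7039 for CD1 and 9631 and 7731 for DNp63 in the basal gate. The basal libraries were lower than all luminal ones and overlapped each other. Jup fell by 0.59 from CD1 luminal to CD1 basal (SE 0.13, adjusted p = 0.00693), a call lost without the second CD1 basal library (adjusted p = 0.0587). Between mice it was not called (-0.11, 95% interval -0.41 to 0.19, in the luminal gate, and 0.15, -0.15 to 0.45, in the basal gate).

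Of the 10 genes, only Dsp and Jup were found in the RefSeq promoter table (GRCm38.p6), so the upstream sequences of these plaque genes alone are shown. The 250 bases before each start are printed 5′ to 3′ on the strand of the gene (Dsp, chr13:38151044-38151293, plus strand; Jup, chr11:100397791-100398040, minus strand). The RefSeq start of Dsp is that of the GENCODE gene, whereas that of Jup lies upstream of the GENCODE start given above. Capitals mark the core letters of p53 family sites: CATG and also CTAG, which read alike on both strands, and CAAG with its reverse complement CTTG.
Dsp: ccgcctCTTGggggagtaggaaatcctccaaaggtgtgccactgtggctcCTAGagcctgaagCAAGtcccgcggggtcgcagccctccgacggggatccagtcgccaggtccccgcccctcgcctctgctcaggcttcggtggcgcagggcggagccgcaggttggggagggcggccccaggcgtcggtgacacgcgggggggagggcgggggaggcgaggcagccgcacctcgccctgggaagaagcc
Jup: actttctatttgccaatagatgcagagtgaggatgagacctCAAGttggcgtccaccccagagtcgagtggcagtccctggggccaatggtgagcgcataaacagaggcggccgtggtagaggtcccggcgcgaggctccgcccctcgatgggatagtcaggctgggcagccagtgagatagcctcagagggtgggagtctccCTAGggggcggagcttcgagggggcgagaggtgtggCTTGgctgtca
Each window held 3 single cores, as 96.5% of all 32851 windows of this length held at least 1. Neither held 2 cores with 6 letters between them, the spacing of a full p53 family site, which 5.8% of windows held. Neither held CAGGTG on either strand, a letter string bound by Snail and Zeb repressors, which 17.2% of windows held. The GC content was 72.4% for Dsp and 62.0% for Jup, against a median of 52.4% over all windows. Such matches describe these letters in these windows and nothing about binding.

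Pkp1 (ENSMUSG00000026413, chromosome 1, 135871395 to 135919207, minus strand), the plakophilin of stratified epithelia, had 759 and 782 for CD1 and 2601 and 2540 for DNp63 in the luminal gate, and 3416 and 3086 for CD1 and 4944 and 4013 for DNp63 in the basal gate. The groups lay in this order without overlap: CD1 luminal, DNp63 luminal, CD1 basal, DNp63 basal. Its difference was 2.05 between the CD1 gates (SE 0.13, adjusted p = 8.17e-06) and 1.67 between the luminal groups (SE 0.13, adjusted p = 0.000526), a 3.34-fold rise in level from 770.5 ± 16.3 to 2570.5 ± 43.1 (SD, n = 2). In the basal gate it was 0.44 (95% interval 0.15 to 0.73, adjusted p = 0.227). The effect of mouse differed between the gates (interaction -1.23, SE 0.18, adjusted p = 0.0379), a call lost without any 1 of both DNp63 luminal, both CD1 basal or both DNp63 basal libraries (0.119 to 0.184), and without both libraries of low Xist (-1.11, 0.588).

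The other plakophilins had other patterns. Pkp2, the plakophilin of simple epithelia and heart, had 1387 and 1345 for CD1 and 1313 and 1358 for DNp63 in the luminal gate, and 293 and 216 for CD1 and 93 and 68 for DNp63 in the basal gate. It was called lower in CD1 basal than in CD1 luminal (-2.42, adjusted p = 3.7e-05) and lower again in DNp63 basal than in CD1 basal (-1.58, adjusted p = 0.0144), and was -0.09 between the luminal groups (95% interval -0.56 to 0.37). Pkp3 ranged from 1402 to 2271 and was called only between DNp63 basal and DNp63 luminal (-0.40, adjusted p = 0.0416). Per kb of exon, Pkp1 made up 17.7% and 16.5% of the 3 plakophilins for CD1 and 37.2% and 37.4% for DNp63 in the luminal gate, and 57.0% and 58.9% for CD1 and 67.9% and 62.8% for DNp63 in the basal gate.

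Perp (ENSMUSG00000019851, chromosome 10, 18845020 to 18857073, plus strand) encodes a tetraspan membrane protein of desmosomes that is a target of p53 and p63. It had 1805 and 1356 for CD1 and 3791 and 3416 for DNp63 in the luminal gate, and 4574 and 4843 for CD1 and 5319 and 5836 for DNp63 in the basal gate, again in that order without overlap. Perp rose by 1.57 between the CD1 gates (SE 0.15, adjusted p = 7.9e-05) and by 1.14 between the luminal groups (SE 0.15, adjusted p = 0.00526), a 2.28-fold rise in level. The luminal call was lost without the first DNp63 luminal library (1.06, adjusted p = 0.0512). In the basal gate the difference was 0.23 (95% interval -0.12 to 0.58, adjusted p = 0.66), and the interaction of -0.91 missed the threshold (adjusted p = 0.145).

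In DNp63 luminal against CD1 luminal cells, then, 4 of the 10 genes were called higher (Cdh3, Pkp1, Perp and Dsp) and 0 lower, beside 2.65% and 1.78% of all tested genes (4.43% in either direction). The median difference over the 10 was 0.28, or -0.03 without Dsg3, against 0.01 over all tested genes. The luminal groups did not overlap for these 4, Dsg3 and Jup, 6 of 10, as for 46.3% of tested genes. The 4 called were among the genes that were higher in the CD1 basal gate. Both comparisons use the same CD1 luminal libraries, and several of these genes were noted in earlier results of the same data, so the values are given side by side only. Counts depended on single libraries: 2 were called without the first DNp63 luminal library, and 2 (Cdh3 at 2.41, adjusted p = 0.0436, and Pkp1 at 1.69, 0.0362) without both DNp63 libraries of low Xist. There Perp had 1.22 (0.127) and Dsp 0.69 (0.238), with 1 DNp63 library in each gate assumed to vary like the CD1 groups. Cdh3 and Pkp1 were called in each of the 17 alternative settings, at differences of 1.87 to 2.41 and 1.63 to 1.73.

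**Figure D3:**
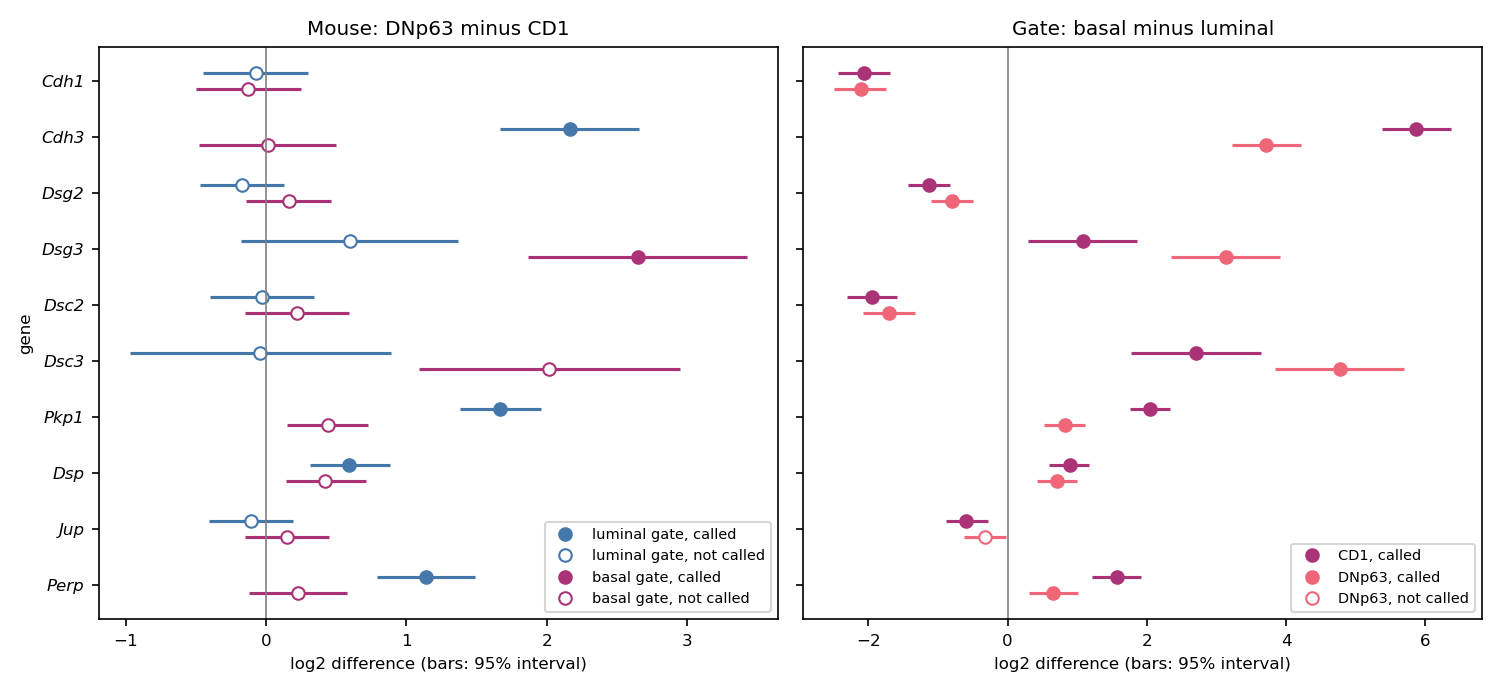
Log2 differences of the 10 genes with 95% intervals, between mice within each gate (left) and between gates within each mouse (right); filled points were called and open points were not. In the luminal gate Cdh3 (2.17), Pkp1 (1.67), Perp (1.14) and Dsp (0.59) were called, and in the basal gate Dsg3 (2.65), which entered the test only through the DNp63 basal libraries.

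Levels in DNp63 luminal cells came close to those of CD1 basal cells for some junction genes and not for others. The DNp63 luminal mean was 84.2% of the CD1 basal mean for Dsp, 79.1% for Pkp1 and 76.5% for Perp, against 53.4%, 23.7% and 33.6% in CD1 luminal. For Cdh3 it was 7.84% (CD1 luminal 1.54%), and for Dsc3 8.42% (CD1 luminal 9.41%). Dsg3 was at 65.4% (CD1 luminal 30.8%), but on 10 and 12 reads, and is not plotted. The 6 basal markers stood far lower than Dsp, Pkp1 and Perp on the same scale. Krt5 was at 1.76% (CD1 luminal 1.12%), Krt14 at 1.30% (0.945%) and Acta2 at 1.14% (0.981%). Myh11 was at 0.835% (0.819%), Oxtr at 1.72% (4.11%) and Trp63 at 22.0% (0.846%). Outside that marker list, the keratins Krt15 and Krt17 were at 40.4% (20.8%) and 3.58% (1.78%). DNp63 luminal and CD1 basal cells were not tested against each other. Between the luminal groups, only Trp63 of the 6 basal markers was called (4.46), and only Krt19 of the 6 luminal markers (0.59), both higher in DNp63. Of all tested genes, 2.65% were called higher there. Fibroblast sums were 9112 and 43804 in CD1 luminal and 16905 and 9730 in DNp63 luminal, with Dcn the 1 gene called of 7 (-2.07, adjusted p = 0.0378), and endothelial sums 1359 and 1564 against 1109 and 967.

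**Figure D4:**
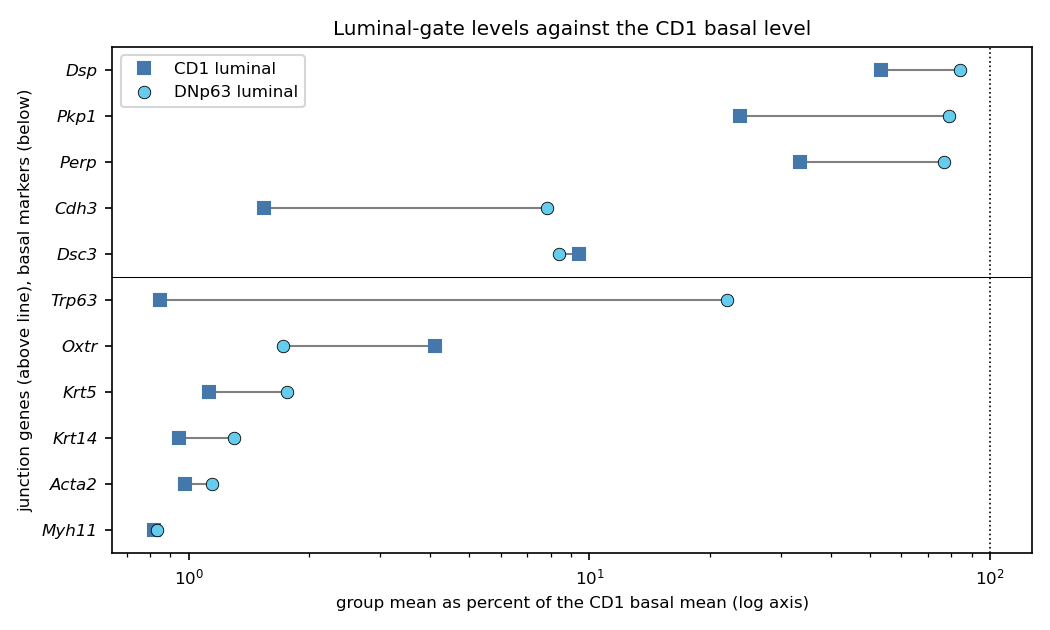
Group means in the luminal gate as a percentage of the CD1 basal mean (log axis), for 5 junction genes (above the line) and 6 basal markers (below). Dsp, Pkp1 and Perp reached 76.5% to 84.2% in DNp63 luminal, whereas the basal markers other than Trp63 were at or below 1.76%.

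Between the basal groups, the 8 genes other than Dsg3 and Dsc3 had differences of -0.13 (Cdh1) to 0.44 (Pkp1), none called (Pkp1 and Dsp had intervals above 0). In 7 of the 10 the basal groups did not overlap, as in 42.6% of tested genes. The median over all 10 was 0.22, against -0.04 over all tested genes. Of 6 luminal markers, 4 were called lower in DNp63 basal, beside 0.521% of all tested genes. Those 4 included Krt18 (-1.56, adjusted p = 0.00334) and Krt8 (-0.97, adjusted p = 0.014). The 4 of the 10 genes that were higher in the luminal gate (Cdh1, Dsg2, Dsc2 and Jup) were not called. Of the other junction and linker genes called higher in the luminal gate of CD1, Pkp2 and Nectin4 were called lower (values with their lists). Evpl, Ppl, Plec and Nectin2 were not called.

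Against the luminal groups, DNp63 basal cells showed the gate pattern again. Compared with CD1 luminal, 6 genes were called higher and 4 lower (5 and 4 without Dsg3), beside 25.1% and 22.2% of tested genes (47.2% in either direction). The largest differences were those of Cdh3 (5.88), Dsc3 (4.73) and Dsg3 (3.73). Neither Dsc3 nor Dsg3 reached the filter value in any luminal library. Jup (-0.43, adjusted p = 0.0251) was the weakest call and was lost without either CD1 luminal library, the first DNp63 luminal or the second DNp63 basal library (adjusted p 0.064 to 0.183). Compared with DNp63 luminal, 6 were higher and 3 lower (5 and 3 without Dsg3), beside 24.9% and 24.4% of tested genes (49.2% in either direction). Jup was not called there (-0.32, 95% interval -0.62 to -0.02, adjusted p = 0.0712), but passed without the first DNp63 basal library (0.041) and with the replicate number as a block (0.0454). With all libraries, the gate difference within DNp63 mice was 4.77 for Dsc3, 3.13 for Dsg3, -2.11 for Cdh1, -1.70 for Dsc2 and -0.80 for Dsg2. It was 3.71 for Cdh3, 0.82 for Pkp1, 0.71 for Dsp and 0.66 for Perp, and the last was lost without the second DNp63 luminal (0.0564) or second DNp63 basal library (0.0551). Without both DNp63 libraries of low Xist, 3 genes were called higher (Cdh3, Dsc3 and Pkp1), Dsp (0.54, adjusted p = 0.102) and Perp (0.50, 0.197) were not, and Dsg3 was not tested.

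Per kb of exon, the order of the 10 genes differed between gates. In CD1 luminal Cdh1 led (4722 reads per 20000000 per kb), followed by Jup (1774) and Dsp (1084). In CD1 basal Perp (2412) and Dsp (2030) led, and Jup (1198), Cdh1 (1163) and Cdh3 (1022) stood close together. In DNp63 luminal Cdh1 led (4688), and Perp (1846), Jup (1713) and Dsp (1709) stood close together below it. Dsg3 was last of the 10 in CD1 luminal, CD1 basal and DNp63 basal, at 1.15, 3.73 and 29.7, and Dsc3 was last in DNp63 luminal, at 1.57.

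Other junction genes came from lists written with earlier results of these data known, and their counts between the CD1 gates stand beside the 24.2% of all tested genes called higher and 20.1% called lower. Between luminal groups these shares were 2.65% and 1.78%, between basal groups 0.195% and 0.521%, and between DNp63 gates 24.9% and 24.4%. Of 7 other desmosome genes, only Pkp2 and Pkp3 could be tested. Dsg1a and Dsg4 were listed at 0 in all libraries, and Dsg1b, Dsg1c and Dsc1, which serve the upper layers of skin, reached at most 14. Of 6 plakins and filament linkers in CD1 basal against CD1 luminal, 2 were higher and 3 lower (median -0.03): Dst, which encodes the hemidesmosomal plakin of basal cells among its forms (1.74), and Macf1 (0.65) against Evpl (-2.38) and Ppl (-1.06), the envoplakin and periplakin of the cornified envelope. None of the 6 was called between mice in either gate (medians 0.02 and -0.19).

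Keratins are the filaments that desmosomes anchor, and the list shares 5 genes with the basal and luminal markers above. Of 9 keratins, 4 were higher in the CD1 basal gate and 5 lower (median -2.33), with Krt14 (6.72) and Krt5 (6.33) the highest and Krt19 (-2.89) and Krt18 (-2.70) the lowest. In DNp63 luminal only Krt19 was called (0.59, adjusted p = 0.0245), and the median over the 9 was 0.55. In DNp63 basal against CD1 basal 1 was higher, Krt15 (2.63, adjusted p = 0.00897), a keratin of basal keratinocytes, and 4 were lower, Krt18 and Krt7 (-1.53) the most. Of all tested genes, 0.195% were called higher and 0.521% lower there.

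Other cadherins were mostly found in the basal gate. Of 20, 11 could be tested, and 9 of these were higher in the CD1 basal gate and 0 lower (median 3.26). Of the 9, Cdh4, Cdh6, Cdh10 and Cdh15 reached the filter value of 40 in basal libraries alone. Their direction was thus set by the filter, and the count is a description. Cdh5, the cadherin of endothelium, led (5.42, from 348 and 323 to 15016 and 14684), followed by Cdh2, N-cadherin (3.96). Cdh5 is itself one of the 9 endothelial markers whose sums are given above. Between mice the 11 gave 1 call, Cdh19 in the luminal gate (1.62, adjusted p = 0.0491). Its values were 18 and 30 in CD1 luminal and 112 and 75 in DNp63 luminal.

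Catenins link classical cadherins to actin. Of 8 tested, 4 were higher in the CD1 basal gate and 0 lower (median 0.92), with Ctnnal1 (3.13) and Ctnna3 (3.01) leading. Of all tested genes, 24.2% were called higher and 20.1% lower there (44.3% in either direction). Ctnna3 had 0 in every luminal library and entered the test through the basal gate alone. Beta-catenin, Ctnnb1, ranged from 7617 to 10052 over the 8 libraries, and its gate difference in CD1 was 0.12 (adjusted p = 0.404). None of the 8 was called between mice in either gate (medians 0.06 and 0.05), while 5 were higher and Ctnnd1 lower (-0.59, adjusted p = 0.0225) in DNp63 basal than in DNp63 luminal.

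Nectins are immunoglobulin-like adhesion proteins of adherens junctions, held to actin by afadin. Of 12 nectins and linkers, 5 were higher in the CD1 basal gate and 2 lower (median -0.02). Beside them stand 24.2% of all tested genes called higher and 20.1% called lower (44.3% in either direction). The higher ones were led by Nectin3 (2.68) and Ajuba (2.56), and the lower ones were Nectin4 (-3.15) and Nectin2 (-0.95). In the luminal gate Shroom3, an actin organiser of the apical junction, fell by 0.83 in DNp63 (adjusted p = 0.00775), from 5358 and 5287 to 3062 and 3154, and Nectin3 fell by 0.97 (adjusted p = 0.0473). In the basal gate Nectin4 was lower in DNp63 (-1.48, adjusted p = 0.0228).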

How the data were processed

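RNA was sequenced from 8 sorted libraries. Per the submitters' processing notes, STAR did the alignment and HTSeq the counting, with GRCm38 (mm10) as the build. Versions, annotation release and strand setting: not given in the sources used here. Deposited score values are counts, per the labels' notes and the values, that the authors scaled to 20000000 reads and rounded up. Column sums were 20006569 to 20013862. Low values lay on steps of 2.78 to 4.83, the value of 1 read, from which reads were recovered, so differences of a few reads are within rounding and counting error. Intervals from reads cover counting error only.

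Values were divided by trimmed mean of M values (TMM) factors (trims 30% and 5%), and 8 was added. On the log2 scale limma 3.58.1 (R 4.3.3) fitted the 4 group means with a trend on intensity. Residual degrees of freedom were 4 and prior ones 4.69. A gene needed 40 or more in 2 or more libraries, which left 16900. Tests were two-sided, and p-values were adjusted over all genes tested. The fit was tested on simulated data. Of 49671 genes, 49412 were found in GENCODE M21, which gave coordinates and merged exon lengths. The genes and lists were chosen with earlier results of these data known. Named were the 10 genes, up to 2 called genes of each list in each direction and comparison with the largest differences, the 2 genes nearest in pattern to each of the 10, Trp63 and lineage markers; others were chosen after their values were seen. One gene that the rule names is not reported here. Alternatives were pseudocounts of 2 and 32, no filter, median-of-ratios or no scaling, voom on recovered reads, only the groups compared, a replicate block, and each library left out. One alternative was added after seeing the data: both DNp63 libraries of low Xist left out.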

Additional observations from a re-analysis of the deposited data

Results flagged for a closer look

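The interaction test asked whether the DNp63 minus CD1 difference was the same in both gates, and 2 of the 10 genes were called, beside 0.343% of all tested genes. For Cdh3 the difference of differences was -2.16 (limma adjusted p = 0.0337): 2.17 in the luminal gate and 0.01 in the basal gate. For Pkp1 it was -1.23 (adjusted p = 0.0379): 1.67 in the luminal gate and 0.44 in the basal gate. Both were higher in 2 of 2 DNp63 luminal libraries than in either CD1 luminal library, but 46.3% of all tested genes also had no overlap between these groups. The interaction was called in 7 of 16 alternative settings for Cdh3 and 6 of 16 for Pkp1, and both calls were lost with no filter (0.112 for each) and with voom (0.0846 and 0.0685).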

How the results depend on the processing

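Over 17 alternative settings, 545 of 597 alternative values of differences that were called kept their direction and call and 52 lost the call. Of 392 values not called, 368 stayed so, 8 became called and 16 changed sign, none of them called; the cause was not tested. Those changes of sign were Dsc3 between luminal groups (0.01 at pseudocount 2 and without both libraries of low Xist; -0.51 to 0.43 leaving out 1 library), Dsc2 there (0.03 with no further scaling; -0.14 to 0.08 leaving out 1), Cdh1 there (-0.14 to 0.00), Cdh1, Cdh3 and Jup between basal groups (-0.37 to 0.12, -0.10 to 0.12 and 0.00 to 0.31; Cdh3 -0.10 without low Xist) and the interaction of Cdh1 (0.01 with median-of-ratios scaling; -0.30 to 0.19 leaving out 1).

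Leaving out 1 library, calls among the 10 ranged from 2 to 4 higher between luminal groups (142 to 985 of all genes, 749 with all libraries), 0 to 2 higher between basal groups (3 to 190, 121), and 0 to 3 negative in the interaction (4 to 163, 58). Without both libraries of low Xist, members called higher were 2 between luminal groups, 0 between basal groups (4 at unadjusted p under 0.05 with all libraries) and 3 between DNp63 gates, with 0 negative in the interaction; all genes called were 35, 19, 3739 and 0 in these, and 4853 between DNp63 basal and CD1 luminal. With no filter, all genes called were 442 between luminal groups, 45 between basal groups and 10 in the interaction, with 0 of the 10 called in either of the last. With pseudocount 32, 2 of the 10 were higher between basal groups and 1 (Dsg3) positive in the interaction (116 genes). With only the groups compared, 314 genes were called between luminal groups and 2 of the 10 between basal groups; the interaction could not be fitted so. Voom called 50 genes between basal groups, and 22 in the interaction with 0 of the 10 among them. Median-of-ratios scaling left 1 negative (Cdh3). Replicate numbers are shared without a stated pairing, and same-numbered libraries had correlations of deviations of -0.026 to 0.45. The largest were between the gates of 1 mouse type: 0.45 for CD1 and 0.28 for DNp63, against -0.026 to 0.126 for the other pairs of groups. The low Xist also fell on the same-numbered library in both DNp63 gates (36 and 141). Whether the gates share animals is not stated, and the main fit treated all libraries as independent. If they do, the p-values between gates and of the interaction ignore that pairing. The replicate block called 203 genes between basal groups and 128 in the interaction. The block changed 1 call of the 10, Jup between DNp63 gates (-0.32, limma adjusted p = 0.0454). It was a single term shared by CD1 and DNp63, so it cannot show how calls depend on a pairing within each mouse type. Depth limits Dsg3, which had few reads outside the DNp63 basal libraries, and Dsc3, which had few outside the basal gate.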

Other observations

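Among 12355 other genes with a mean value of at least 100, the patterns nearest to each gene over the 8 libraries were found by the root mean square difference of centred log2 values, a description in which gate sets most of the distance. The nearest were Plpp2 (0.118) and Mapkapk3 (0.130) for Cdh1, Sez6l (0.468) and Sdpr (0.520) for Cdh3, Os9 (0.074) and Rpl39 (0.080) for Dsg2, and Pak4 (0.139) and Gm25835 (0.155) for Dsc2. For the plaque genes and Perp they were Plcd4 (0.231) and Gm12002 (0.237) for Pkp1, Ankrd50 (0.128) and Bora (0.131) for Dsp, Mettl2 (0.063) and Ndufs7 (0.067) for Jup, and Hspa2 (0.131) and 2610035D17Rik (0.150) for Perp. Pla2g7 (0.407) was nearest to Dsc3. Dsg3, which was itself under that mean, was set against 12356 genes and lay nearest to 1600014C10Rik (0.462) and Lgals7 (0.518), a galectin of stratified epithelia. Within the 10 genes, Cdh1 and Dsc2 were each other's nearest (0.274), as were Dsg2 and Jup (0.305), and Dsp and Perp (0.279). Cdh3 had no near partner among them, with Dsc3 the closest at 1.194.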
